A study of Arabidopsis thaliana with 16 samples.

Results

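The heat response of wild-type (WT) Arabidopsis thaliana seedlings was measured as the difference between whole seedlings held at 37 °C for 1 h and seedlings kept at 22 °C. Its values come from 4 of the 16 arrays of the series, the arrays of heated WT and of unheated WT, with 2 of each. The spread used in the tests was estimated over all 16 arrays. WT is the Col-0 accession, and all plants were 7 days old. The RNA was hybridised to Affymetrix arrays, on which a probe set is a group of short probes for 1 transcript. Where the other lines are used, heated and unheated seedlings of each were compared in the same way, with 2 arrays a group. These lines are hsfa2, in which HSFA2 is knocked out in the Col-0 background; QK, a quadruple knockout of HSFA1a, HSFA1b, HSFA1d and HSFA1e in a mixed Col-0 and Ws background; and A2QK, which is QK with HSFA2 driven by the CaMV 35S promoter and is named as a single line (A2QK-10). WT carries none of these changes. Nothing in the labels tells if the paired arrays are separate batches of plants, so every p-value here reflects the spread among these samples alone, which may be technical.

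Plants meet a sudden rise in temperature by activating heat shock factors, which switch on genes for chaperones, the proteins that keep other proteins folded. Membranes, the endoplasmic reticulum and the mitochondria also respond, and growth, which depends on making and exporting cell wall material, is slowed. The account here concerns the genes outside a list of chaperones, which need not hold every chaperone.

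Of 22746 probe sets, 1965 (8.64%) changed in heated WT at an adjusted p under 0.05 in limma's test with Benjamini-Hochberg adjustment, 753 of them raised (3.31%) and 1212 lowered (5.33%). These percentages are the background against which each group's count is read. A single named gene was available for 13454 probe sets, and 394 of these rose and 609 fell. Outside the chaperone list 372 named probe sets rose, 236 of them at least 2-fold, and 609 fell, 321 of them at least 2-fold. The highest 3 rises in the chaperone list were AT1G53540 (9.99 ± 1.26, adjusted p = 0.000401), AT1G52560 (9.39 ± 0.79) and ATHSP22.0 (8.54 ± 0.95). Changes here are log2 differences, heated minus unheated, with the standard error of the fit, so that 1 is a doubling, and levels are log2 values given for array 1 and then array 2. In bulk RNA from whole seedlings, fewer cells of a type and less RNA per cell cannot be told apart.

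Every called probe set moved the same way within the arrays numbered 1 and within those numbered 2, and in none did the 2 heated arrays overlap the 2 unheated ones. Among all probe sets 44.3% did not overlap. Pairs that do not overlap must move the same way within both numbers, and the calls were made from these same arrays. The raised probe sets had a median change of 1.47 within number 1 and 1.40 within number 2. For the lowered ones the medians were -1.12 within number 1 and -0.996 within number 2, and 763 of 1212 fell further within number 1. Raised and lowered probe sets had median unheated levels of 5.46 and 6.71, against 5.12 for all probe sets. The largest rise was 9.99 and the largest fall 3.68 on the log2 scale.

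**Figure D1:**
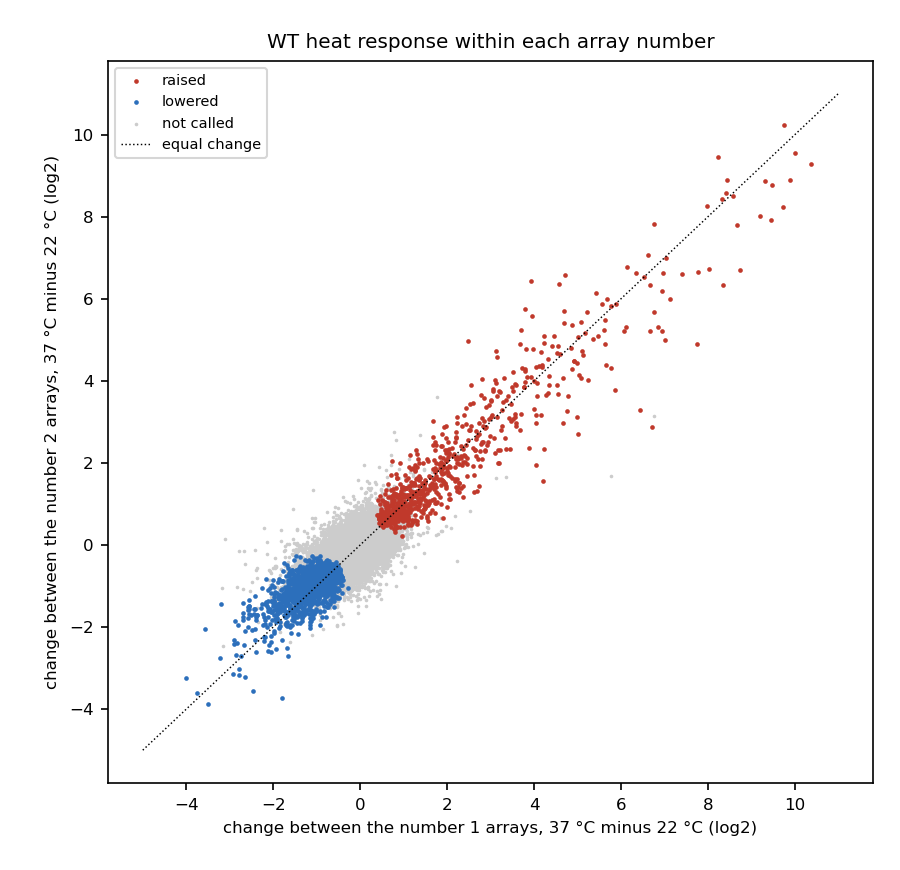
Change of each of 22746 probe sets within the number 1 arrays (x, log2) and the number 2 arrays (y, log2) of WT; red points were raised, blue points lowered and grey points not called, and the dotted line marks equal change. The rises reach higher than the falls reach low, and the blue points have median changes of -1.12 on x and -0.996 on y.

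Transcripts of the mitochondrial genome rose together. This genome encodes a few subunits of the respiratory chain, which passes electrons to oxygen and drives ATP synthesis, and parts of the machinery that processes its own RNA. Of 18 probe sets for mitochondrion-encoded genes 15 rose and 0 fell (median change 3.76, against 0.01 for all probe sets), and 10 of 11 genes had at least 1 raised probe set. The median was 3.54 in hsfa2, where 14 of the 18 rose.

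Complex I subunits led the group. nad6 stood at 9.85 and 9.82 in heated WT, against 2.88 and 3.19 in unheated WT, and rose by 6.80 ± 0.19 (adjusted p = 3.15e-09). nad4L stood at 8.44 and 8.35 in heated WT, against 3.56 and 2.99 in unheated WT (5.12 ± 0.22). The heated arrays of both genes lay close together and far above the unheated pair. nad5 rose on both of its probe sets (5.19 ± 0.34 and 4.77 ± 0.47), and nad9 rose by 4.61 ± 0.14. The smallest rises were those of nad7 (0.91 ± 0.25, adjusted p = 0.0423) and nad4 (0.71 ± 0.20, adjusted p = 0.0491). nad4 had the highest unheated level of the group, 6.93 and 6.53, and stood at 7.72 and 7.16 in heated WT. nad1 rose on 5 of its 7 probe sets, by 3.26 to 5.05, while the others changed by 0.59 ± 0.19 and 0.22 ± 0.21. nad2, with 1 probe set, stood at 3.70 and 3.50 in heated WT, against 3.40 and 3.10 in unheated WT, and did not pass (0.35 ± 0.33).

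Subunits of complex IV, the terminal oxidase, followed. cox2 stood at 7.89 and 8.43 in heated WT, against 3.91 and 3.65 in unheated WT, a rise of 4.38 ± 0.23 (adjusted p = 4.49e-07). cox1 stood at 9.25 and 9.53 in heated WT, against 5.44 and 5.28 in unheated WT, a rise of 4.03 ± 0.21. matR, which encodes a maturase for splicing introns, rose by 3.13 ± 0.18. A nuclear copy of much of the mitochondrial genome lies on chromosome 2 near its centromere, and probes for the 2 copies cannot be told apart. In the stretch of chromosome 2 around that copy, chosen after the values were seen, 19 of 32 named probe sets rose and 0 fell, with AT2G07722 the highest (5.78 ± 0.23). Without heated array 1, nad7 and nad4 no longer passed, nor did they without unheated array 2, and nad7 was also lost without unheated array 1. The count of raised mitochondrial probe sets was 13 to 15 when 1 array was left out and 12 with the WT arrays fitted alone.

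Plastid-encoded genes, transcribed in the other organelle with its own genome, had no call: of 69 probe sets 0 rose and 0 fell (limma, Benjamini-Hochberg; 1 passed an unadjusted p of 0.05), with a median change of -0.17. Their levels differed between array numbers. Array 2 was above array 1 by a median of 1.14 in heated WT and 1.44 in unheated WT. rps18, a ribosomal protein gene, stood at 5.43 and 7.72 in heated WT, against 6.74 and 8.69 in unheated WT (-1.14 ± 0.86, adjusted p = 0.538). The median plastid change was 0.04 within number 1 and -0.31 within number 2, and the median standard error of these probe sets was 0.56, against 0.22 for all. A change of -1.05, the median of the probe sets lowered in WT, is less than 2 standard errors at that spread.

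The nuclear genes for respiration that are in the gene lists moved less. The lists were matched by symbol, so genes given by locus number only may be missing from them. The list of tricarboxylic acid cycle and related respiratory genes had 2 of 26 probe sets raised and 0 lowered (median 0.16). One was CYTC-2, which encodes cytochrome c, the mobile electron carrier between complexes III and IV. It stood at 9.19 and 9.51 in heated WT, against 7.45 and 8.10 in unheated WT (1.57 ± 0.32, adjusted p = 0.0103). The other was SDH2-2, an iron-sulfur subunit of succinate dehydrogenase, at 8.60 and 8.43 in heated WT, against 7.87 and 7.46 in unheated WT (0.85 ± 0.19, adjusted p = 0.0167). In both genes the heated and unheated arrays were separate. CYTC-2 was lost without unheated array 1 (1.25) or heated array 2 (1.41), and SDH2-2 without unheated array 2 (0.64) or heated array 1 (0.77).

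Several named nuclear genes rose as single members of their lists or outside any list. TIL, a temperature-induced lipocalin that protects membranes, stood at 12.02 and 12.07 in heated WT, against 9.24 and 9.61 in unheated WT (2.62 ± 0.18, a 6.15-fold rise). DER1 (AT4G29330) encodes a derlin, a membrane protein through which misfolded proteins leave the endoplasmic reticulum for degradation. It stood at 9.98 and 9.88 in heated WT, against 7.11 and 7.04 in unheated WT, a rise of 2.86 ± 0.20 (adjusted p = 3.11e-06). A second DER1 probe set, dim at 2.61 and 2.67 in heated WT, against 2.07 and 2.17 in unheated WT, did not pass (0.52 ± 0.27). BZIP28, a membrane-bound transcription factor of the same compartment that is released under stress, stood at 8.72 and 8.60 in heated WT, against 7.78 and 7.27 in unheated WT (1.14 ± 0.17). Of 23 homeodomain and bZIP factors it was the only one raised. TIL was the only measured member of 22 heat-tolerance regulators. DER1 and the other genes named in this report that belong to no list were chosen after their values were seen.

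The ubiquitin and proteasome list had 2 of 42 probe sets raised and 3 lowered (median 0.01), near the 3.31% and 5.33% of all probe sets. SK18 (AT1G10230), an SKP1-like adaptor of SCF ubiquitin ligases, stood at 7.72 and 7.80 in heated WT, against 5.81 and 5.84 in unheated WT, a rise of 1.93 ± 0.15. CUL4, the cullin scaffold of another ligase class, rose by 0.73 ± 0.14. The 3 that fell are ubiquitin-specific proteases, which remove ubiquitin: UBP16 (-0.99 ± 0.23), UBP15 (-0.65 ± 0.13) and UBP24 (-0.54 ± 0.15). SK18 remained called without any 1 WT array. CUL4 was lost without unheated array 1 (0.67) or heated array 2 (0.66). At most 1 of the 3 proteases passed without any 1 array, and UBP15 and UBP24 were lost with equal array medians.

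Other named genes outside the chaperone list rose as well. BOB1 (AT5G53400), a NudC-domain protein needed for development and heat tolerance, stood at 9.73 and 9.84 in heated WT, against 6.50 and 7.52 in unheated WT (2.77 ± 0.28, adjusted p = 6.38e-05). SQN (AT2G15790), cyclophilin 40, a prolyl isomerase that works with HSP90, stood at 5.04 and 5.60 in heated WT, against 3.35 and 3.99 in unheated WT (1.65 ± 0.30). The second SQN probe set lay near 2.2 in both groups and did not pass (0.06 ± 0.16). SAY1 (AT4G11740) stood at 7.84 and 7.82 in heated WT, against 5.83 and 5.51 in unheated WT (2.16 ± 0.16). XCT, a nuclear protein named for its effect on the circadian clock, rose by 1.23 ± 0.21. The heated arrays lay above the unheated ones for each of these 4 genes, and their calls remained when any 1 WT array was left out.

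CML37, a calmodulin-like calcium sensor, stood at 5.71 and 4.92 in heated WT, against 2.44 and 2.01 in unheated WT, a rise of 3.09 ± 0.57 (adjusted p = 0.00546). A relative, CML42, moved the other way: 5.63 and 4.96 in heated WT, against 6.72 and 6.23 in unheated WT (-1.17 ± 0.26). These were the only calls among 30 members of the calcium signalling list (median -0.09), which may miss genes given by locus number only. CML37 was lost without heated array 1 (2.69), and CML42 without unheated array 1 (-0.93) or heated array 2 (-0.84).

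**Figure D2:**
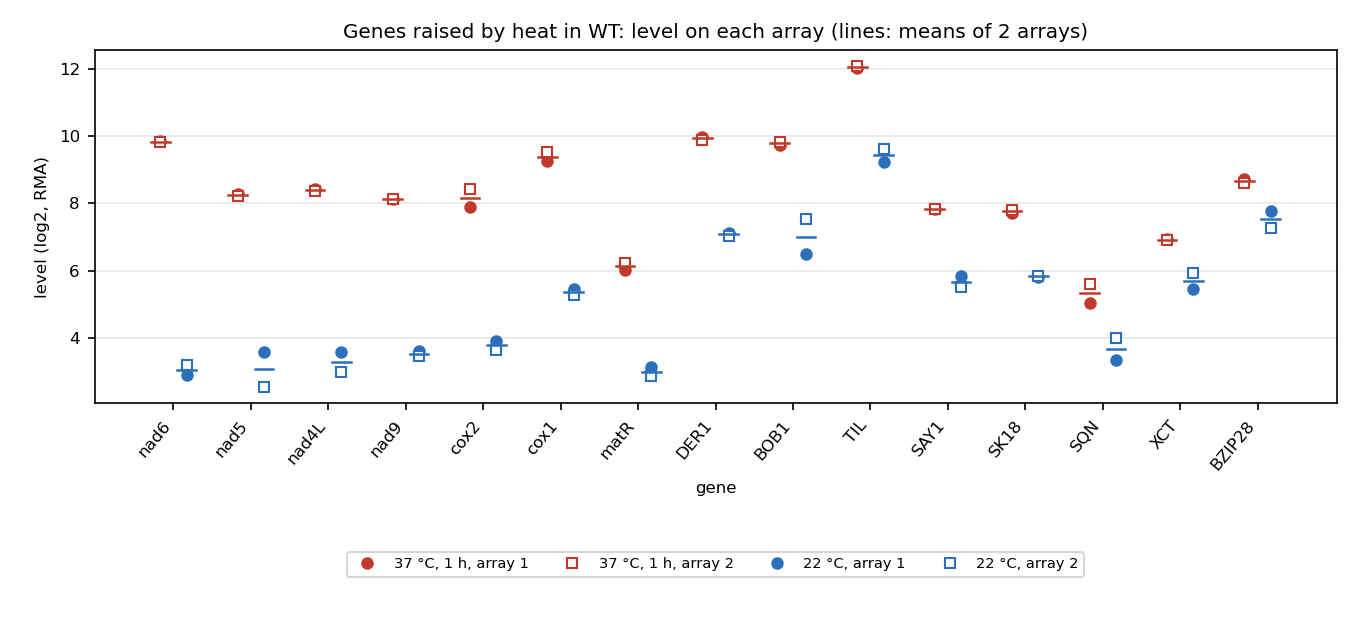
Level (y, log2 RMA) of 15 raised genes (x) on each WT array, heated arrays in red and unheated arrays in blue, array 1 filled and array 2 open, with a line at the mean of each pair. The 7 mitochondrion-encoded genes on the left stand between 6.02 and 9.85 in heated WT, against 2.53 to 5.44 in unheated WT; every gene shown has its heated pair above its unheated pair.

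Membrane traffic toward the vacuole, autophagy, and transcription gave single small rises. VPS60.1, an ESCRT-related protein, rose by 1.04 ± 0.26 as the only 1 of 16 ESCRT and vacuolar sorting genes (median 0.27). AT5G66930, annotated as ATG101, a subunit of the kinase complex that starts autophagy, rose by 0.94 ± 0.23 as the only 1 of 11 autophagy genes. That list had a median of 0.44, and 10 of its 11 members were above 0. MED19A (0.72 ± 0.14) and MED6 (0.66 ± 0.18) belong to Mediator, which links transcription factors to RNA polymerase II, and NRPB9B (0.60 ± 0.17) is a subunit of that polymerase. ASF1B (0.92 ± 0.17), a histone chaperone, and SWC2 (0.83 ± 0.22), of a complex that exchanges histones, rose among 18 chromatin remodelling genes, whereas LDL2, a histone demethylase homologue, was lowered (adjusted p = 0.01). SRX, a sulfiredoxin that repairs oxidised peroxiredoxin, rose by 0.65 ± 0.15 as the only call among 19 genes of its list. None of these 9 small calls remained in all 4 fits without 1 WT array. Without heated array 1 the changes of VPS60.1, AT5G66930, MED19A and SRX were still upward but did not pass.

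The largest rises outside the chaperone list were mostly of genes that the annotation gives by number only. By the rule for naming genes, 15 were taken, of which 13 were loci without a symbol and 2 were mitochondrial (nad6 and nad4L). One of the 13, AT2G07722, lies in the chromosome 2 stretch described above, where probes do not tell the nuclear from the mitochondrial copy. AT5G07330 rose by 6.57 ± 0.61, AT5G25450 by 6.51 ± 0.34, AT1G21550 by 6.46 ± 0.38, AT1G66080 by 6.23 ± 0.27, AT1G30070 by 6.08 ± 0.59 and AT1G10260 by 5.88 ± 0.17. The next were AT5G35320, AT2G07722, AT1G72660, AT5G53680, AT3G07150, AT4G27657 and AT5G10695, between 5.19 and 5.83. AT5G25450 stood at 12.17 and 12.24 in heated WT, against 5.49 and 5.90 in unheated WT. AT5G53680 had close pairs, 8.35 and 8.17 in heated WT, against 2.72 and 2.70 in unheated WT. Of the 15, AT5G10695 had the widest unheated pair, with 11.99 and 11.54 in heated WT, against 8.05 and 5.11 in unheated WT. All 15 remained called in each fit that left out 1 WT array.

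Among genes for the cell wall some were lowered and none was raised. The wall surrounds the growing cell with cellulose tied by xyloglucan and pectin. Enzymes made in the Golgi or secreted to the wall build this network and loosen it for growth. Over 7 wall lists (subtilases, xyloglucan enzymes and expansins, the cellulose synthase family, GH9 endoglucanases, pectin enzymes, trichome birefringence-like proteins, and extensins and arabinogalactan proteins) 18 of 98 probe sets fell (18.4%, against 5.33% of all probe sets) and 0 rose, with a median change of -0.35. The lists were chosen with earlier results of these data known, so this share is a description and not a test of wall genes. The median was -0.22 with equal array medians, with 14 lowered. The count was 13 or 14 without any 1 of unheated array 1, unheated array 2 or heated array 2, but 5 without heated array 1, and 1 with the WT arrays fitted alone.

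Subtilases, secreted serine proteases that cut wall and signalling proteins, had 4 of 11 probe sets lowered (median -0.32). SBT4.12 (AT5G59090) stood at 5.12 and 5.14 in heated WT, against 7.87 and 7.85 in unheated WT, a fall of 2.73 ± 0.24 on the log2 scale (adjusted p = 2.46e-05). SBT1.3 stood at 5.77 and 5.93 in heated WT, against 7.88 and 7.53 in unheated WT (-1.85 ± 0.18). In both genes the heated values lay far below the unheated ones. ARA12, which acts in the mucilage of seed coats, changed by -1.28 ± 0.28 and ATSBT5.2 by -1.11 ± 0.25. Without heated array 1 these last 2 were at -0.97 and -0.66 and did not pass; ARA12 also missed without unheated array 2 (-1.04), and ATSBT5.2 without unheated array 1 (-1.02).

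Xyloglucan enzymes and expansins, which rearrange and loosen the wall, had 4 of 29 lowered and a median of -0.54. XTH26 stood at 3.92 and 3.87 in heated WT, against 6.11 and 5.69 in unheated WT (4.01-fold lower, adjusted p = 0.0119). EXGT-A3, of the same enzyme family, stood at 8.16 and 8.85 in heated WT, against 9.57 and 10.49 in unheated WT (-1.53 ± 0.29, adjusted p = 0.00741). The expansins EXPA4 and EXPA9 changed by -1.84 ± 0.45 and -1.69 ± 0.39. All 4 missed the threshold without heated array 1, where EXPA4 was at -1.24, EXPA9 at -1.26, EXGT-A3 at -1.18 and XTH26 at -2.03; EXPA4 (-1.45) and EXPA9 (-1.39) also did without unheated array 2, and XTH26 without unheated array 1 (-1.80) or heated array 2 (-1.98). The root hair expansins EXPA7 (-0.90 ± 0.28, adjusted p = 0.0708) and EXPA18 (-1.27 ± 0.38, adjusted p = 0.0634), which also serve as root markers, did not pass, but both were lower at an unadjusted p under 0.05 (median -1.09, and -1.20 in hsfa2). The part of root tissue in the lowered wall and PYK10 genes was not tested.

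In the cellulose synthase list 5 of 11 fell, with a median of -0.49. The list holds enzymes that make wall polysaccharides and also COB, which is not such an enzyme. COB, a membrane-anchored protein that orients cellulose, stood at 8.50 on both arrays of heated WT, against 9.81 and 9.65 in unheated WT (-1.23 ± 0.22), and it remained called without any 1 WT array. Of 5 probe sets for CSLC genes, which make the glucan backbone of xyloglucan, 3 fell: CSLC5 by 1.43 ± 0.36, CSLC04 by 1.11 ± 0.26 and CSLC6 by 1.05 ± 0.23. CSLD2, which acts in root hair growth, changed by -0.94 ± 0.23. Without heated array 1 only COB of the 5 passed, and without the other arrays 2 or 3 did.

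The other wall lists gave single falls or a pair. ATPMEPCRB (AT4G02330), a pectin methylesterase, stood at 2.60 and 2.95 in heated WT, against 5.29 and 4.78 in unheated WT, a fall of 2.27 ± 0.29 (1 of 7 pectin genes). HRGP1, an extensin and the only measured member of its list, stood at 6.33 and 6.01 in heated WT, against 7.80 and 7.18 in unheated WT (-1.32 ± 0.35, adjusted p = 0.0388). TBL23 was the 1 of 24 trichome birefringence-like probe sets that fell (-0.75 ± 0.20). Some enzymes of wall and glycan synthesis that belong to no list, picked after their values were seen, were also lowered. AT1G08280, annotated as GALT29A, a Golgi enzyme that adds galactose to arabinogalactan, stood at 4.12 and 4.33 in heated WT, against 6.16 and 5.30 in unheated WT (-1.50 ± 0.24). AT5G39990, annotated as GlcAT14A, which adds glucuronic acid to the same polymer, changed by -1.50 ± 0.39. GMII, the Golgi mannosidase that trims N-glycans, changed by -1.40 ± 0.34, and XEG113, an arabinosyltransferase for extensins, by -0.93 ± 0.22. The endoglucanases GH9C1 (-0.96 ± 0.23) and GH9B12 (-0.70 ± 0.19) were lowered among 15 of their family. ATPMEPCRB and AT1G08280 kept their calls without any 1 WT array. AT5G39990 passed only without heated array 2, and GMII, XEG113 and HRGP1 only without unheated array 2. GH9C1 passed in 2 of the 4 fits, GH9B12 and TBL23 in none, and HRGP1, GH9B12 and TBL23 were also lost with equal array medians.

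Vesicle traffic, which carries wall material and secreted proteins, followed in part. In the exocyst and vesicle fusion list 5 of 31 probe sets fell and 0 rose (median -0.14). Of these, 4 belong to the PRA1 family of Rab-binding membrane proteins, which had 11 probe sets measured. PRA1.F1 stood at 4.68 and 4.78 in heated WT, against 6.31 and 5.52 in unheated WT (-1.18 ± 0.28), and PRA1.B6 at 5.70 on both heated arrays, against 7.25 and 6.50 in unheated WT (-1.17 ± 0.26). PRA7 (-0.95 ± 0.26), PRA8 (-0.77 ± 0.16) and TPLATE (-0.70 ± 0.20), a part of the endocytic machinery, were lowered less. Only 1 or 2 of the 5 passed in each fit without 1 WT array, 3 passed with equal array medians, and none with the WT arrays alone.

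**Figure D3:**
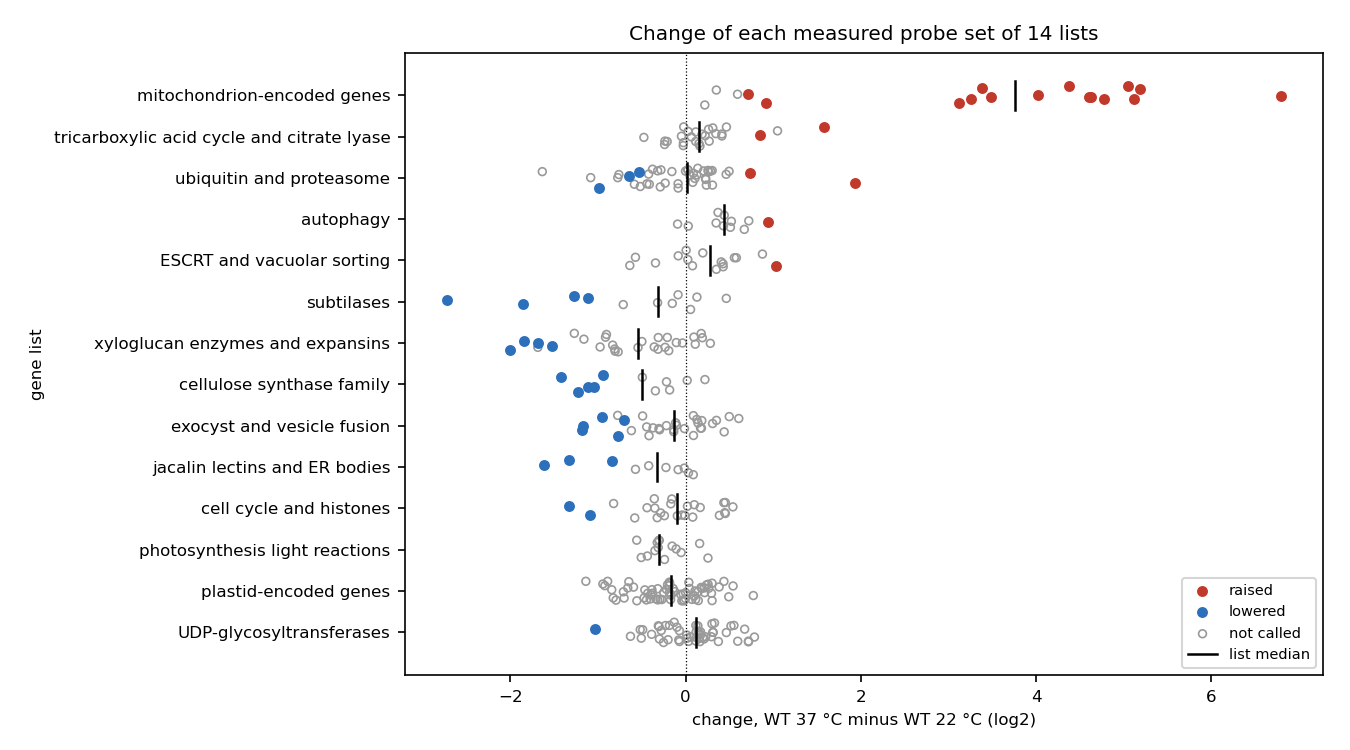
Change (x, log2, heated minus unheated WT) of every measured probe set in 14 gene lists (y); red points were raised, blue points lowered, open points not called, and the black bar is the list median. Mitochondrion-encoded genes lie to the right with a median of 3.76, the wall lists to the left with blue points from -2.73, and plastid-encoded genes and photosynthesis genes have open points only.

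Some genes of ER bodies, a defence store, fell. In Brassicaceae seedlings, ER bodies hold beta-glucosidases that release toxic products when a cell is damaged. The list of ER body and jacalin genes had 3 of 10 lowered (median -0.32). PYK10, the main ER body beta-glucosidase, stood at 10.64 and 10.19 in heated WT, against 12.05 and 11.44 in unheated WT (-1.33 ± 0.23, adjusted p = 0.00344). NAI2, a structural component of these bodies, stood at 7.66 and 7.72 in heated WT, against 9.27 and 9.34 in unheated WT (-1.62 ± 0.38). NAI1, the transcription factor that drives their genes, changed by -0.85 ± 0.18, and its change in hsfa2 was -0.16. PYK10 remained called without any 1 WT array, NAI2 in none of those fits (adjusted p between 0.072 and 0.109), although its pairs of arrays were tight, and NAI1 in 2. BGLU33, a further beta-glucosidase, stood at 2.98 on both heated arrays, against 5.39 and 5.30 in unheated WT (-2.37 ± 0.20), and 2 of 22 beta-glucosidases were lowered in all.

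Secreted defence proteins gave a few large falls. PR-1-LIKE (AT2G19990), related to the pathogenesis-related protein PR1, stood at 3.08 and 3.62 in heated WT, against 6.65 and 5.67 in unheated WT (-2.81 ± 0.35, adjusted p = 0.000377). The chitinase gene ChiC changed by -1.66 ± 0.39. The thaumatin-like ATLP-1, which belongs to no list and was picked after its values were seen, changed by -1.24 ± 0.23. Besides PR-1-LIKE and ChiC, the other 15 of 17 genes in the defence list had no call, and the list median was -0.02. ChiC was lost without unheated array 2 (-1.21) or heated array 1 (-0.98), and ATLP-1 without heated array 1 (-1.05). GTR2, a transporter of glucosinolates, stood at 5.64 and 6.19 in heated WT, against 7.54 and 7.72 in unheated WT, a change of -1.72 ± 0.26. OCT5, of the organic cation transporters, fell by 1.33 ± 0.21.

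A few genes of surface receptors and peptide signals were lowered. THE1, MOL1, AT4G28650 and QKY belong to no list and were picked after their values were seen, and in the list of receptor and MAP kinases 1 of 3 fell, the MAP kinase gene ATMPK8 (-1.14 ± 0.29). THE1, a receptor kinase that senses damage to the wall, stood at 6.28 and 5.88 in heated WT, against 7.26 and 7.10 in unheated WT (2.14-fold lower, adjusted p = 0.00255). RALFL33 and RALFL34 encode RALF peptides, secreted signals that bind receptors of that family. RALFL33 stood at 8.30 and 8.59 in heated WT, against 9.75 and 9.32 in unheated WT (-1.09 ± 0.19), and RALFL34 at 8.06 and 8.64 in heated WT, against 9.34 and 9.53 in unheated WT (-1.09 ± 0.22). They were the 2 calls among 15 RALF and CLE peptides. The receptor kinase genes MOL1 (-1.16 ± 0.25) and AT4G28650, annotated as PXL2 (-1.12 ± 0.28), act around the vascular cambium, and QKY (-1.18 ± 0.28) shapes organs through cell-to-cell contacts. THE1 and RALFL33 remained called without any 1 WT array; RALFL34 and QKY were lost without unheated array 2 (-0.99 and -0.90) or heated array 1 (-0.80 and -0.73). MOL1 and ATMPK8 were lost without unheated array 1 or heated array 2, and AT4G28650 in all 4 fits (adjusted p between 0.0682 and 0.175). ATMPK8 was also lost with equal array medians.

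Regulators of development and the clock included several calls that remained without any 1 WT array. BRH1, TIC, SEU, JKD, EX1 and NIH belong to no list and were picked after their values were seen. BRH1, a brassinosteroid-responsive RING-H2 gene, stood at 7.23 and 6.67 in heated WT, against 8.55 and 8.35 in unheated WT (-1.50 ± 0.25). TIC, a clock gene, stood at 6.32 and 6.31 in heated WT, against 7.50 and 7.74 in unheated WT (-1.31 ± 0.16), while 0 of 3 genes in the clock and light list were called. SEU, a transcriptional co-regulator of organ identity, fell by 1.22 ± 0.18, and JKD, a zinc finger factor of root patterning, by 1.12 ± 0.18. EX1, which relays singlet oxygen signals in plastids, fell by 0.93 ± 0.17, and NIH, a nuclear helicase, was 2.14-fold lower. In the auxin list IAA29, a repressor of auxin response, rose (0.62 ± 0.16) and WAG2, a kinase acting on auxin transport, fell (-1.06 ± 0.20), with 16 others not called. IAA29 passed only without heated array 2, and WAG2 missed without unheated array 2 (-0.85) or heated array 1 (-0.87).

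Genes of chromosomes and the cytoskeleton gave scattered falls. Of 4 probe sets for HTB genes, which encode histone H2B, 2 fell: HTB1, at 5.52 and 6.45 in heated WT, against 7.10 and 7.54 in unheated WT (-1.34 ± 0.32), and HTB2 (-1.09 ± 0.21). The other 23 of 25 cell cycle and histone genes had no call. DRT100, listed with DNA repair by its name but encoding a leucine-rich repeat protein, stood at 7.52 and 7.58 in heated WT, against 9.50 and 9.17 in unheated WT (-1.78 ± 0.19), and TOPII, topoisomerase II, changed by -0.90 ± 0.21. TRM21 (-1.26 ± 0.22) and TRM15 (-0.69 ± 0.19), of a family tied to microtubules, were lowered among 14. SPK1 (-0.93 ± 0.21), an activator of small GTPases that shape cells, and KINESIN-13A (-0.83 ± 0.19) fell with them. DRT100 remained called in every fit without 1 WT array, TRM21 in all but that without heated array 1, and TOPII and TRM15 in none; TRM15 was also lost with equal array medians. SPK1 passed only without unheated array 2 and KINESIN-13A only without heated array 2. HTB1 was lost without unheated array 2 (-1.12) or heated array 1 (-0.87), and HTB2 without unheated array 2 (-0.95) or heated array 2 (-0.91).

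**Figure D4:**
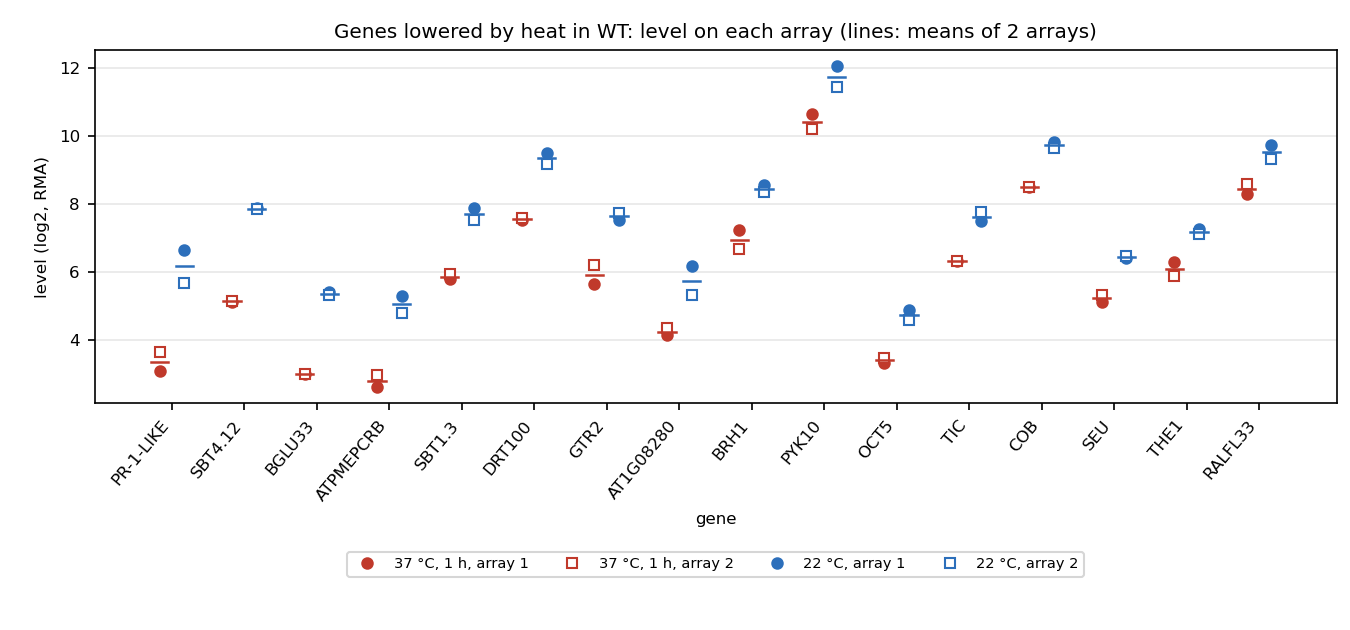
Level (y, log2 RMA) of 16 lowered genes (x) on each WT array, heated arrays in red and unheated arrays in blue, array 1 filled and array 2 open, with a line at the mean of each pair. Every heated pair lies below its unheated pair, and SBT4.12 and BGLU33 have the tightest pairs.

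The largest falls by the naming rule were again mostly of numbered loci. AT5G54370 stood at 3.23 and 2.97 in heated WT, against 6.16 and 6.11 in unheated WT (-3.04 ± 0.37). AT5G64110 fell by 2.77 ± 0.38, AT4G13580 by 2.66 ± 0.44, AT3G28040 by 2.61 ± 0.38, AT2G25250 by 2.56 ± 0.29 and AT3G61820 by 2.37 ± 0.30. AT1G28400, AT2G18980, AT2G47550, AT3G19030 and AT2G41980 fell by 2.29 or less, the fall of AT1G28400. Of the 15, PR-1-LIKE, SBT4.12, BGLU33 and ATPMEPCRB carry a symbol. AT2G47550 was lost without unheated array 1 or heated array 2, and AT3G19030 without unheated array 2 or heated array 1. In hsfa2, AT5G64110 did not pass (-0.65, adjusted p = 0.294).

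Several lists had few calls or none, beside the 8.64% called over all probe sets. Of 51 UDP-glycosyltransferases, which attach sugars to small molecules, UGT72B3 alone fell (-1.03 ± 0.26) and 0 rose. UGT72B3 passed only without heated array 2 among the fits without 1 WT array, and with equal array medians it did not pass (adjusted p = 0.0552) while 2 of the 51 were raised. Measured were 14 of 52 glutathione transferases, 19 of 63 sugar transporters, 13 of 112 abscisic acid, drought and cold genes and 6 of 52 antioxidant enzymes. In each of these sets 0 passed in limma's test, which for sets this small is near the share over all probe sets. At an unadjusted p under 0.05 the numbers were 0, 3, 1 and 0. COR47, a cold-inducible dehydrin, was the highest of these, at 12.15 and 11.54 in heated WT, against 11.26 and 9.70 in unheated WT (1.37 ± 0.41, adjusted p = 0.0649). The unheated arrays of COR47 lay far apart, and the groups did not overlap. TMT1, a vacuolar sugar transporter, stood at 7.45 and 6.59 in heated WT, against 9.01 and 7.73 in unheated WT (-1.35 ± 0.45, adjusted p = 0.0955).

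The nuclear photosynthesis genes in the gene lists also had no call in the main fit, though with quantile normalization 1 light-reaction probe set was lowered. Of 14 light-reaction probe sets 0 passed, with a median change of -0.30 and 12 of 14 below 0, and 5 were lower at an unadjusted p under 0.05. PSAE-1, a subunit of photosystem I, stood at 12.40 and 12.32 in heated WT, against 12.72 and 12.65 in unheated WT (-0.32 ± 0.13, adjusted p = 0.174). Among 11 Calvin cycle and chlorophyll genes PRK, the kinase that regenerates the acceptor of carbon dioxide, had the lowest change (-0.66 ± 0.22, adjusted p = 0.0968). RCA, rubisco activase and the green tissue marker that was measured, stood at 12.42 and 12.74 in heated WT, against 12.80 and 13.09 in unheated WT, among the high levels of a green seedling. The root markers EXPA7 and EXPA18 stood at 4.80 to 4.92 in heated WT, against 5.51 to 6.23 in unheated WT, and 0 of 13 seed and 0 of 10 flower markers were measured.

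The arrays of hsfa2 share no sample with those of WT, though the fit shares its estimate of spread. Of the 753 probe sets raised in WT, 567 (75.3%) were raised in hsfa2, where 5.61% of all probe sets rose, and these made up 44.4% of the 1277 raised there. Of the 1212 lowered in WT, 929 (76.7%) were lowered in hsfa2, where 8.33% of all fell, or 49.0% of its 1894. The direction was the same for 739 and 1191 of the WT calls. nad6 changed by 7.15 in hsfa2, against 6.80 in WT, DER1 by 3.42 against 2.86, SBT4.12 by -2.27 against -2.73 and BGLU33 by -3.02 against -2.37. IAA29 was the 1 probe set called in opposite directions, lowered in hsfa2 and raised in WT (0.62).

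The WT response was tested against the mean response of hsfa2, QK and A2QK, and 130 probe sets differed (0.572%), 90 with a higher change in WT (0.396%) and 40 with a lower one (0.176%). Of the 90, 88 were raised by heat in WT. SK18 changed by 1.93 in WT, against 1.75 in hsfa2, -0.67 in QK and 1.39 in A2QK (difference 1.11 ± 0.17, adjusted p = 0.0149). AT1G66080 changed by 6.23 in WT, against 5.56, 0.70 and 3.21 in hsfa2, QK and A2QK (difference 3.07 ± 0.32, adjusted p = 0.00133). AT1G10260 differed by 3.05 ± 0.19 and AT1G72660 by 2.78 ± 0.29. In each of these genes QK had the lowest change. One of the 7 nad1 probe sets differed too (1.90 ± 0.32, adjusted p = 0.0218), whereas nad6 did not (-0.18). This nad1 probe set changed by 3.26 in WT, against 3.36 in hsfa2, 0.11 in QK and 0.61 in A2QK. The other raised nad1 probe sets rose by 2.90 to 5.34 in QK and A2QK and did not differ. AT2G07777, in the chromosome 2 stretch described above, also differed (2.73 ± 0.32, adjusted p = 0.00279). It changed by 3.87 in WT, against 3.90 in hsfa2, -0.34 in QK and -0.15 in A2QK. No other named probe set in that stretch differed. In QK and A2QK, of mixed Col-0 and Ws background, effects of the changed HSFA genes and of accession cannot be told apart.

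The members of the gene lists among the 40 with a lower change in WT were WAG2, HAT2, EXLA2 and XTH33. WAG2 changed by -1.06 in WT, against -0.60 in hsfa2, 1.55 in QK and 0.38 in A2QK (difference -1.50 ± 0.23, adjusted p = 0.0144). HAT2, a homeodomain factor induced by auxin, changed by -0.93 in WT, against -0.02, 0.46 and 0.90 in hsfa2, QK and A2QK (difference -1.38 ± 0.26), and its own fall in WT passed only without heated array 2 among the fits without 1 WT array. EXLA2, an expansin-like gene, changed by -0.32 ± 0.28 in WT and by 1.16, 1.30 and 2.52 in the others (difference -1.97 ± 0.32, adjusted p = 0.0196). XTH33 changed by -0.23 ± 0.28 in WT and by 0.17, 2.47 and 1.78 in them (difference -1.71 ± 0.32). Of the 40, 10 were lowered by heat in WT itself. The number of differing probe sets was 61 without heated array 1 and 57 without heated array 2.

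**Figure D5:**
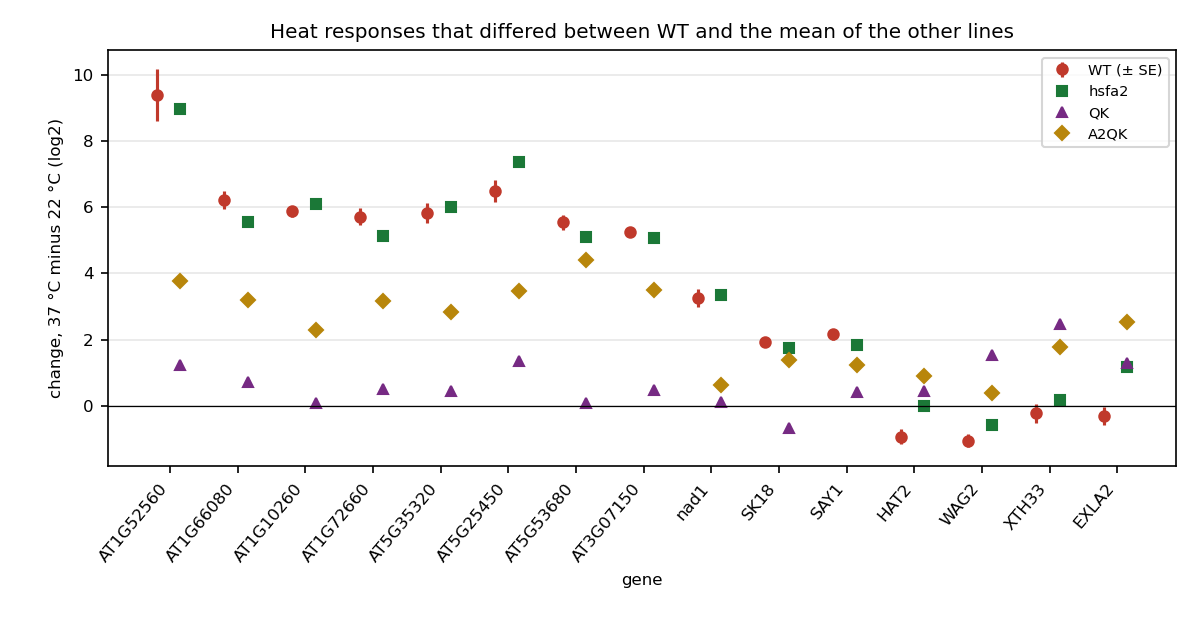
Change with heat (y, log2) of 15 genes (x) in WT (red, with the standard error of the fit) and in hsfa2, QK and A2QK, for genes whose WT response differed from the mean of the other lines. The 11 genes on the left lie higher in WT than in QK and A2QK, and HAT2, WAG2, XTH33 and EXLA2 lie lower in WT than in all 3 other lines.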

How the data were processed

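The authors deposited log2 values from RMA, per the submitters' processing notes; no source used here gives its version or chip definition. RMA corrects background, gives the arrays similar distributions and summarises probes, so it shrinks changes common to most genes and those of dim probe sets. Of 22810 probe sets 64 controls were left out. The probe annotation gave 13513 a single gene and 503 several, and 8730 stay unnamed; 13454 matched RefSeq, and 11885 of these carry a locus number only and are given no role.

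limma 3.58.1 in R 4.3.3 fitted a mean for each of 8 groups over 16 arrays (8 residual and 3.37 prior degrees of freedom), two-sided, adjusted over 22746 probe sets. The script was tested on simulated data. Arrays have no read depth, and 2 arrays a group limit the precision. The 70 lists were matched by symbol, and the chaperone list also by locus number from textbook knowledge; members and lists were chosen with earlier results of these data known. Named were the 15 largest rises and falls outside the chaperones that moved the same way within both array numbers (the brightest probe set for a gene with several), and per list with at least 3 measured members up to 3 called members each way. Alternatives were other sample sets, a replicate block, scalings, a filter on dim probe sets and leaving out arrays.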

Additional observations from a re-analysis of the deposited data

Results flagged for a closer look

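The heat response of WT was tested against the mean response of hsfa2, QK and A2QK in limma with Benjamini-Hochberg adjustment. It differed for 66 probe sets with a single named gene. Given here are the 19 of them that belong to the gene lists or to the other genes chosen for naming. AT2G07777, given above, is not among them. Differences are log2 changes of WT minus the mean of the others. Among genes given by number or as a single mitochondrial probe set, the WT change was higher by 3.07 in AT1G66080, 3.05 in AT1G10260, 2.78 in AT1G72660, 2.73 in AT5G35320, 2.45 in AT5G25450, 2.35 in AT5G53680, 2.25 in AT3G07150 and 1.90 in nad1. It was higher by 1.11 in SK18 and by 1.00 in SAY1. In the chaperone list it was higher by 4.73 in AT1G52560, 2.71 in AT1G71000, 2.09 in HSA32, 1.67 in AT3G12050 and 1.65 in AT3G14200. The difference was -1.97 in EXLA2, -1.71 in XTH33, -1.50 in WAG2 and -1.38 in HAT2. In each of the 15 given here with a higher WT change, QK had the lowest change of the other lines.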

How the results depend on the processing

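Of 1965 calls in WT, 753 raised and 1212 lowered, 1845 were counted with equal array medians, 1841 with quantile normalization, 1717 with bright probe sets only and 1803 with a trended, robust fit. Equal medians moved the median change of all probe sets in WT by 0.14, with 1052 raised and 793 lowered. The 8 Col-0 arrays alone gave 1124 calls (510 raised, 614 lowered), and the 4 WT arrays alone 232 (208 raised, 24 lowered). The counts without 1 WT array were 1049 to 1662 in all, 497 to 652 raised and 552 to 1052 lowered. Over the gene lists 106 calls became 34 with the 4 WT arrays, 68 with the Col-0 arrays and 56 to 88 without 1 WT array, with 56 when heated array 1 was left out. Of 169 called probe sets of the lists and other named genes, 147 kept the call with equal medians, 109 with the Col-0 arrays, 49 with the WT arrays alone and 85 in all 4 fits without 1 WT array, and none changed direction in any fit that was run.

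The 2 WT groups share array numbers, and arrays of the same number deviated together (r = 0.79 over probe sets), but the labels give the number no meaning. A block on number within WT let 2705 probe sets pass (950 raised, 1755 lowered), and a block over all arrays 2370 (865 raised, 1505 lowered); over the gene lists they were 141 and 119. The difference between WT and the mean of the other lines gave 156 with the block, against 130 without, and 122 with equal medians. Without 1 WT array it gave 57 to 159 in all, 45 to 90 higher in WT and 12 to 69 lower in WT.

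The hsfa2 response had 3171 calls (1277 raised, 1894 lowered). With equal medians 4197 passed (2869 raised, 1328 lowered), with bright probe sets only 2172 (739 raised, 1433 lowered), and without 1 hsfa2 array 1471 to 2628 (602 to 1280 raised, 869 to 1348 lowered). The cause of these shifts was not tested. Signal near the floor of the arrays limits the changes of dim probe sets.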
